A study of Drosophila melanogaster with 8 samples.

Results

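Broad KDM5 domains were wide stretches of chromatin, without the highest scores, at which the histone demethylase KDM5 was detected in the prothoracic gland of Drosophila larvae. They were chosen by 2 values of the called peaks, a width of 3000 bp or more and a binding score under 7.5. This rule took 461 of 4931 peaks, or 9.35% of peaks and 22.0% of the bases under peaks. The binding score is the deposited value of each peak for Dam:KDM5 relative to Dam alone, and the sources used here state neither its log base nor how values within a peak were combined. Width and score are therefore described below and support nothing by themselves.

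The data came from Targeted DamID (TaDa), in which a chromatin protein fused to the bacterial methylase Dam marks nearby GATC sites. The genotypes were tub-Gal80[ts]; spok-Gal4 with UAS-LT3-damkdm5, and the same drivers with UAS-LT3-dam as the control for accessible DNA, in otherwise wild-type animals. Each genotype had 4 samples, and each sample pooled 100 wandering larvae of the third instar, so single animals cannot be told apart. Eggs were collected for 24 h at 18°C, and animals then spent 5 days at 18°C and 2 days at 29°C. The spok-Gal4 driver limits expression to the prothoracic gland, while the temperature-sensitive Gal80 holds it off at 18°C. The peaks were called by the authors on 1 profile averaged over the replicates, so no value below carries a replicate error, the depth of single samples is unknown, and differences between groups of peaks were not tested.

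KDM5 is an enzyme that demethylates histone H3 at lysine 4, a mark of promoters, and also acts on transcription without demethylation. Most binding of KDM5 family proteins is known from promoters. The prothoracic gland makes ecdysone, the steroid that times molting and metamorphosis. In DamID the smallest unit of measurement is the fragment between neighbouring GATC sites, so the spacing of sites sets how finely a border can be placed, and a domain is a run of fragments that all passed the caller's threshold.

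The sequence at the domain borders showed this unit directly. Both borders of all 4931 peaks fell at a GATC site of the dm6 genome. The stretches below show borders of 3 of the widest domains, each with 20 bases on either side of the site, which is in capitals. They are from the plus strand and lie at chr3R:21140694-21140737 and chr3R:21150632-21150675 (SNF4Agamma), at chr3L:15632030-15632073 (right border of the domain over Phs and comm3), and at chr2L:18631897-18631940 and chr2L:18639371-18639414 (MESR3). None holds an annotated UTR base.
SNF4Agamma left border: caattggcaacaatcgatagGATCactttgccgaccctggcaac
SNF4Agamma right border: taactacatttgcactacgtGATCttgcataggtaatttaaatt
comm3 right border: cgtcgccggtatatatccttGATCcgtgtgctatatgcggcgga
MESR3 left border: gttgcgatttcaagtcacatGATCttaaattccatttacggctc
MESR3 right border: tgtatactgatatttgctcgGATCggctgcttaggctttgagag

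Inside the domains the sequence was mostly intronic, and its simple repeats are shown by the 120-base intron stretches that held the most matches to GAGAG or its reverse complement CTCTC, the core of the motif read by GAGA factor. Overlapping matches were counted on both strands over the domains outside the right arm of the second chromosome, and matched bases are in capitals. The stretch in CHES-1-like (chrX:7696778-7696897) held 14 matches, and those in rdx (chr3R:13983781-13983900) and Tis11 (chrX:12673815-12673934) held 12 each.
CHES-1-like: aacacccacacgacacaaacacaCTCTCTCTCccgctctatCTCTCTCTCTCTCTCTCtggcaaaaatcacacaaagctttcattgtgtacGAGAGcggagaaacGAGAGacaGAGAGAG
rdx: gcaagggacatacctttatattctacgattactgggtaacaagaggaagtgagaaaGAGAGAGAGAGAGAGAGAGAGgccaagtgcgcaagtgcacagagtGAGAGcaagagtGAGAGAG
Tis11: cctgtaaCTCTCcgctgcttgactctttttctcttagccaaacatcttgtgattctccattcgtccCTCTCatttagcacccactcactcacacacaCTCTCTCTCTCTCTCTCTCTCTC

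The other setting in which domains recurred was the stretch between the starts of a pair of genes transcribed away from each other. Among 16 such stretches of 60 to 300 bases that were free of UTR bases and lay outside the same arm, 3 held TATCGATA (the site known for the factor DREF), GGTCACACT or the E-box CACGTG, and in all 3 the match was TATCGATA, in capitals here. They lie between CG14882 and Ttc1 (chr3R:16443008-16443206), between Hmt4-20, a histone H4 lysine 20 methyltransferase, and SkpA, a subunit of SCF ubiquitin ligases (chrX:656034-656113), and between Gcna and MED18, a Mediator subunit (chrX:1865836-1865908).
CG14882 to Ttc1: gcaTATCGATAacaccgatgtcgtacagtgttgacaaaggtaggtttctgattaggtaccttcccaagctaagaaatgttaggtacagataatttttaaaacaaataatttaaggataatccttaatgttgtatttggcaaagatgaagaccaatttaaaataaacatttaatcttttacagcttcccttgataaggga
Hmt4-20 to SkpA: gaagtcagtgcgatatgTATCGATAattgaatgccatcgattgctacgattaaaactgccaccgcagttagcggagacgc
Gcna to MED18: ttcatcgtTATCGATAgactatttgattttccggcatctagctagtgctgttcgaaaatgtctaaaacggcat

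The domains had a median width of 3655 bp, with a middle range of 3261 to 4296 bp and a maximum of 9939 bp. Their binding scores had a median of 3.28, with a middle range of 2.58 to 4.16 and extremes of 1.43 and 7.41. In 401 of them the score was under 5, and in 33 it was under 2. The 4073 narrower peaks with a score under 7.5, called narrower peaks below, had a median width of 1389 bp and a median score of 4.50. Another 389 narrower peaks scored 7.5 or more, called high narrow peaks below, and 8 peaks were wide but scored 7.5 or more. The deposited FDR of the domains had a median of 1.09e-05 and was under 0.001 in 79.0% of them, against 81.3% of the narrower peaks.

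Both limits cut through a continuum. Just inside the width limit were domains of 3000 bp at Hmt4-20 and SkpA and at ps, and 1 of 3007 bp at Cen and IKKepsilon, while peaks of 2997, 2996 and 2992 bp fell just outside. Just inside the score limit were domains at hiw (7.41), Not1 (7.16) and Kr-h1 (7.12), while wide peaks at spen (7.55), Sin3A (7.58) and chic (7.59) fell outside. The median score fell across width classes, from 6.08 in peaks under 500 bp to 2.78 in those of 5000 bp or more. Spearman's correlation between width and score was −0.39 over 4931 peaks and −0.18 over the 461 domains, a description of regions that share 1 profile.

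**Figure D1:**
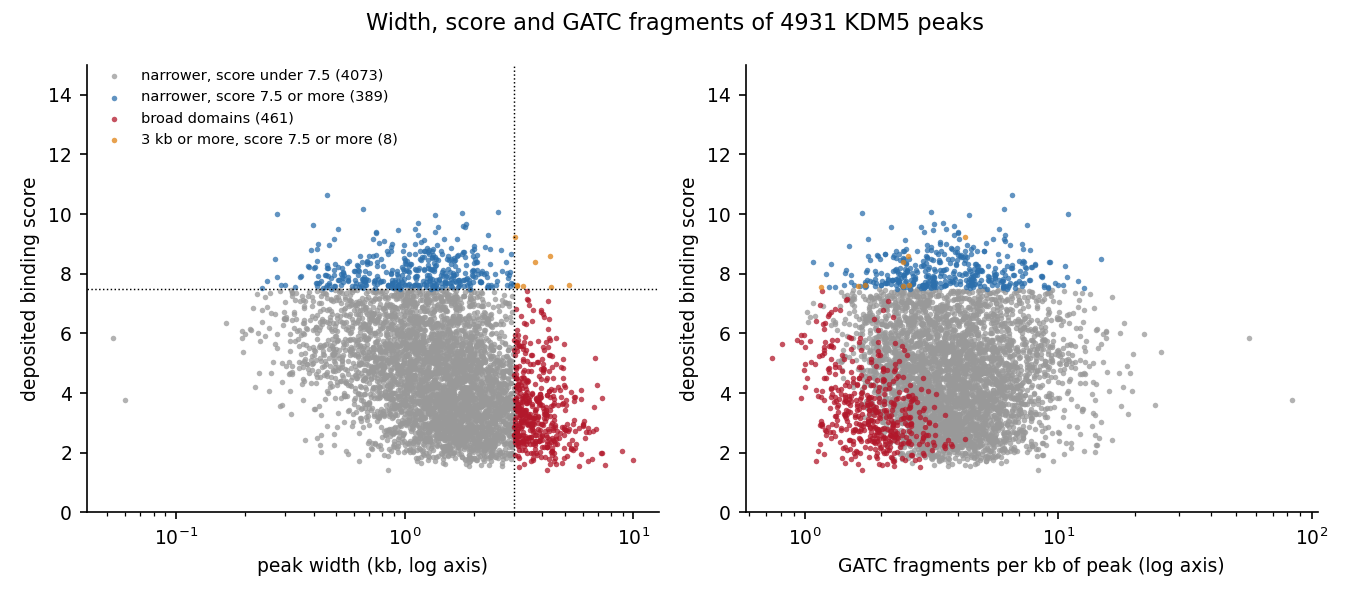
Each point is 1 of 4931 peaks, with width in kb (left) or GATC fragments per kb (right) on a log x axis and the deposited binding score on the y axis, coloured by the 4 classes of peak, and dotted lines mark the limits of 3 kb and 7.5. The 461 broad domains sit at low scores, with a median of 3.28, and at few fragments per kb, with a median of 1.84.

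The domains were poor in GATC sites per kb. The rule chose peaks by width, the denominator of this value, so part of the difference is set by the rule. The domains spanned a median of 7 fragments (3 to 27), not many more than the 5 of narrower peaks. Pooled over their bases they held 1.86 sites per kb, whereas narrower peaks held 3.61, high narrow peaks 3.38 and the chromosome arms 2.79. Introns have fewer sites than exons, but the difference was also present within introns, at 1.58 sites per kb in domains, 2.82 in narrower peaks and 2.11 on the arms. The longest fragment of a domain had a median of 1408 bp and made up a median of 36.3% of its width. In narrower peaks the longest fragment had a median of 609 bp but made up more of the width, a median of 45.2%. In high narrow peaks its median share was 55.0%.

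Width in bases and width in fragments went together only in part. Spearman's correlation between them was 0.54 over all 4931 peaks and 0.27 over the 461 domains. Of the domains, 65 (14.1%) spanned 10 or more fragments and 97 (21.0%) spanned 5 or fewer. In narrower peaks these shares were 1.13% and 60.1%. Of 114 peaks with 10 or more fragments in the whole list, 65 were broad domains, and the rest had a median width of 2166 bp. In 77 domains (16.7%) a single fragment made up at least 50% of the width, which was less common than in narrower peaks (38.3%) and high narrow peaks (61.2%). The domain in Pdk1, a kinase of the insulin pathway, was 3120 bp wide with 3 fragments and scored 5.94. That in upSET, which encodes a chromatin protein, was 4952 bp wide with 4 fragments and scored 5.66. At the other end, the domain at Duox, the dual oxidase gene, was 5314 bp wide with 19 fragments and scored 2.17. Scores fell with the number of fragments over all 4931 peaks (Spearman's correlation −0.73). Fragments per kb fell over the width classes, from 9.55 under 500 bp to 1.57 at 5000 bp or more. Width is the denominator of this value, and domains, narrower peaks and high narrow peaks all had at least 3 fragments. Part of the fall is therefore set by the measure. What part of the width came from the spacing of sites was not tested.

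More than 60% of the bases under the domains lay in introns. Introns took 61.4% of domain bases, 39.5% of narrower peaks, 49.1% of high narrow peaks and 42.7% of the arms. Coding exons took 14.5% of domain bases and 33.9% of those of narrower peaks. The 5′ UTR share was 10.7%, near the 10.5% of narrower peaks and above the 3.06% of the arms. Bases between genes made up 7.20% of the domains and 30.5% of the arms. In 295 domains (64.0%) at least 50% of bases were intronic, which held for 34.3% of narrower peaks, and 150 domains (32.5%) held no coding base at all.

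**Figure D2:**
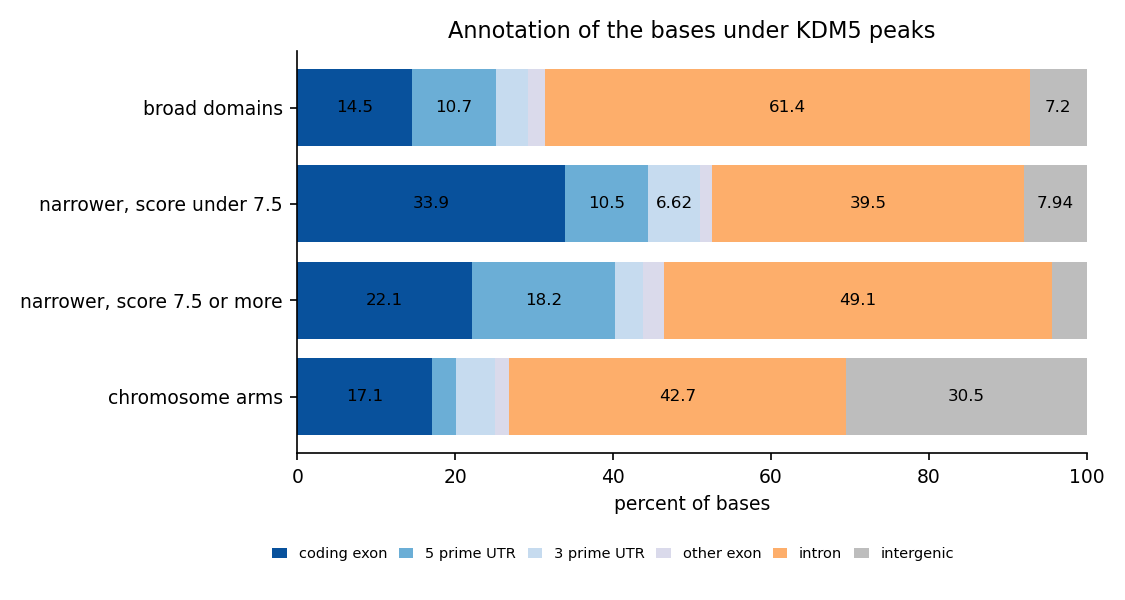
Stacked bars give the percent of bases in each annotation class (x axis) for the broad domains, the 2 classes of narrower peaks and the chromosome arms, with each base counted once. Introns fill 61.4% of the broad domains and 39.5% of the narrower peaks with a score under 7.5.

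The intron share rose with width. Over all peaks, including the 8 wide ones of 7.5 or more, it was 30.2% under 500 bp and 53.7% from 3000 to 4000 bp. It was 67.3% from 4000 to 5000 bp and 77.7% above that. Over the same classes the median GC content went from 48.2% to 40.7%. The pooled GC content of the domains was 41.5%, below the 44.1% of narrower peaks, but within introns the values were 39.3% and 38.9%. Domains chosen by 10 or more fragments in place of width, a choice made after the data were seen, had 47.9% of bases in introns.

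The position of the domains was set against gene starts, and the outermost annotated start of a protein-coding gene is called its TSS here. Of the 232 domains without a TSS, 195 overlapped a single protein-coding gene and 8 overlapped none. A TSS lay in 229 domains (49.7%, exact 95% interval 45.0 to 54.3) and in 29.9% of narrower peaks (28.5 to 31.3), where intervals cover counting error over regions only. Wider regions hold more starts by their width alone. Per kb the domains held 0.202 starts and narrower peaks 0.298, against 0.104 on the arms. When every annotated transcript start was counted, 315 domains (68.3%) held at least 1. Domains with a TSS had 44.9% of bases in introns and 22.6% in coding exons, and domains without one had 77.2% and 6.70%.

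Around a single TSS the domains reached further into the gene than out of it. In the 125 domains with 1 TSS, a median of 904 bp lay upstream and 2711 bp downstream, and 98 of the 125 held more bases downstream. The TSS is the outermost start, so other transcript starts of the same gene can lie only downstream of it. Choosing domains with 1 TSS left out those that reached upstream to the start of another gene, such as the 63 over divergent pairs. Part of this difference can therefore be set by the definition and the choice, and how much was not tested. More coverage by broad domains downstream than upstream was also found over the 1977 protein-coding genes of 10 kb or longer. That count was not limited to domains with 1 TSS but used the same definition. Broad domains covered 5.21% of these genes at the TSS, 7.13% at 2000 bp into the gene and 1.32% at 2000 bp upstream. Narrower peaks covered the most genes at 1000 bp downstream (13.7%), and at 3000 bp both classes covered about as many genes, 5.77% and 6.12%.

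**Figure D3:**
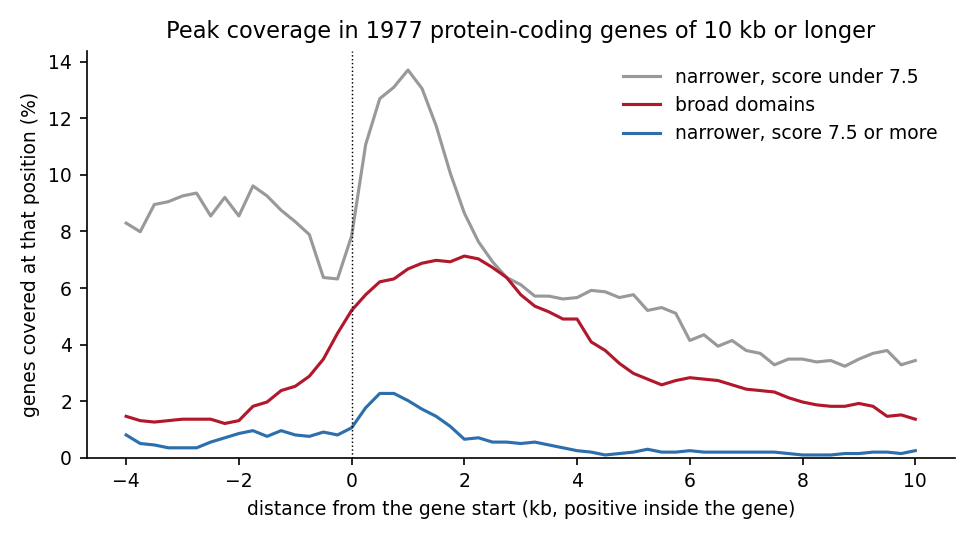
The percent of 1977 protein-coding genes of 10 kb or longer that are covered by a peak (y axis) is plotted against distance from the gene start in kb (x axis, positive inside the gene) for 3 classes of peak. Broad domains reach 7.13% at 2 kb inside the gene, and narrower peaks with a score under 7.5 reach 13.7% at 1 kb.

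Domains inside genes lay in long genes, more often in their first and middle parts than in their last. In 195 domains the only protein-coding gene was one whose TSS lay outside the domain. The median host was 24376 bp long, and 171 of the 195 domains were in hosts of 10 kb or longer. Narrower peaks in the same position had hosts of 6451 bp at the median, and all protein-coding genes a median of 2166 bp. Regions of 3000 bp or more fit less easily in short genes than narrower peaks do. Part of this difference in host length is therefore set by the rule. The domain began a median of 4101 bp from the TSS. Its centre lay in the first part of the gene, when the gene was cut into 3 equal parts, in 93 cases, in the middle part in 75 and in the last in 27. Of these domains, 79 held another annotated transcript start of their host.

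The widest domains were mostly intronic. SNF4Agamma, which encodes the gamma subunit of the energy sensor AMPK, carried the widest, 9939 bp (chr3R:21140715-21150653) with 27 fragments and a score of 1.75. It began at the TSS and filled the first part of a gene of 73531 bp. Of its bases, 9342 were intronic and 8426 were annotated as transposable element. Reads from such repeats can come from other copies, and the sources used here do not say how they were treated. The domain over comm3, a member of the commissureless family, and the end of Phs was 8895 bp wide with a score of 2.07, and the 1 in MESR3 was 7475 bp wide with a score of 1.58 and 4723 bp of transposable element.

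Several of the next widest domains were in genes of transcription factors and chromatin proteins. CHES-1-like, a forkhead factor, held a domain of 7279 bp that scored 3.83 with 7 fragments. JIL-1, a kinase of histone H3, held 1 of 7268 bp (1.99), of which 1734 bp were transposable element. Stat92E, the transcription factor of JAK/STAT signaling, held 1 of 6939 bp that began 1179 bp from its TSS and scored 4.27. Mnt, a repressor that opposes Myc, held 6876 bp (2.79), and Atf3, a bZIP factor, held 6727 bp that was wholly intronic (3.54). The domain in rdx, an adaptor of Cul3 ubiquitin ligase, was 7222 bp wide (1.98), with 1292 coding bases and 2106 bp of transposable element. Among these 10 widest domains that of hts, which encodes adducin, and CalpA, a calpain protease, had the highest score (5.19) and the fewest fragments, 5 over 6786 bp.

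Transposable element sequence was present in few domains, but in a larger share of domains than of narrower peaks. It was found in 32 domains (6.94%) and made up 1.33% of all domain bases. In narrower peaks these shares were 2.21% and 0.403%, while 5.93% of arm bases were so annotated. Wider regions can take in such sequence more easily. The stretches named above in SNF4Agamma, MESR3, JIL-1 and rdx all lay within the 6 domains of 7000 bp or more. Without these 32 domains, an alternative added after the data were seen, the intron share was 61.7% and 49.2% covered a TSS.

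The highest scores among the domains were again mostly in introns. The domain in hiw, an E3 ligase known for synaptic growth, scored 7.41 (3431 bp) and also covered the TSS of CG5541. That over the starts of Not1, the scaffold of the CCR4-NOT deadenylase complex, and Nt5c scored 7.16 (3416 bp). Kr-h1, a transcription factor induced by juvenile hormone, held a wholly intronic domain of 3459 bp that began 1697 bp from its TSS and scored 7.12. Pdk, the kinase of pyruvate dehydrogenase, held another wholly intronic domain (7.09, 4253 bp), and Acsl, a long-chain acyl-CoA synthetase, held 1 of 3508 bp (6.95). The lowest scores were at CG16779 (1.43), at tow and CG10077 (1.51), and over the starts of wun and wun2, which encode lipid phosphate phosphatases (1.57).

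Another form of domain spanned the shared promoter region of divergent genes. In 63 domains (13.7%, exact 95% interval 10.7 to 17.1) the only 2 starts were a divergent pair, which held for 9.55% of narrower peaks (8.67 to 10.5). High narrow peaks had a share of 12.9%, inside the interval of the domains, so such pairs were not particular to them. Wider regions also take in both starts of a pair more easily. In the domains the starts of the pairs were a median of 381 bp apart, and 58 of 63 were under 1000 bp apart. Pairs in other orders were fewer, with 9 convergent pairs, 5 with both genes on the minus strand and 2 with both on the plus strand. The pair CG14882 and Ttc1, whose intervening sequence is given above, lay in a domain of 3061 bp that scored 2.92, the pair Gcna and MED18 in 1 of 3077 bp (2.29), and Hmt4-20 and SkpA in 1 of 3000 bp (5.45). The domain over mrt and CG3368 was 6131 bp wide and scored 2.50.

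A few domains covered gene-dense stretches, and these had low intron content. The domain with the most starts lay on X (chrX:1025466-1031794), was 6329 bp wide, touched 7 protein-coding genes and held the TSS of 6, among them Cdc45, a component of the replicative helicase, and Rpp21, a subunit of RNase P. It scored 2.82, its GC content was 50.4%, and 1535 of its bases were intronic. A domain of 5554 bp held the starts of Droj2, which encodes a DnaJ cochaperone, of mRpS21, of CG8870 and of CG9813 and scored 3.86. Others with 4 starts were at Hpr1, Sec20 and dgrn (4101 bp, 3.29), at usp and Actn (3584 bp, 2.54) and in a domain that touched Rpt2, a proteasome subunit gene, without its TSS (3097 bp, 2.59). In all, 22.6% of the domains covered 2 or more starts and 47 contained a whole protein-coding gene. The longest genes wholly inside a domain were Rab9, CG33170, Cdc42, Sec20 and mthl9, and Rab9 lay in a domain of 4511 bp that scored 3.66.

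**Figure D4:**
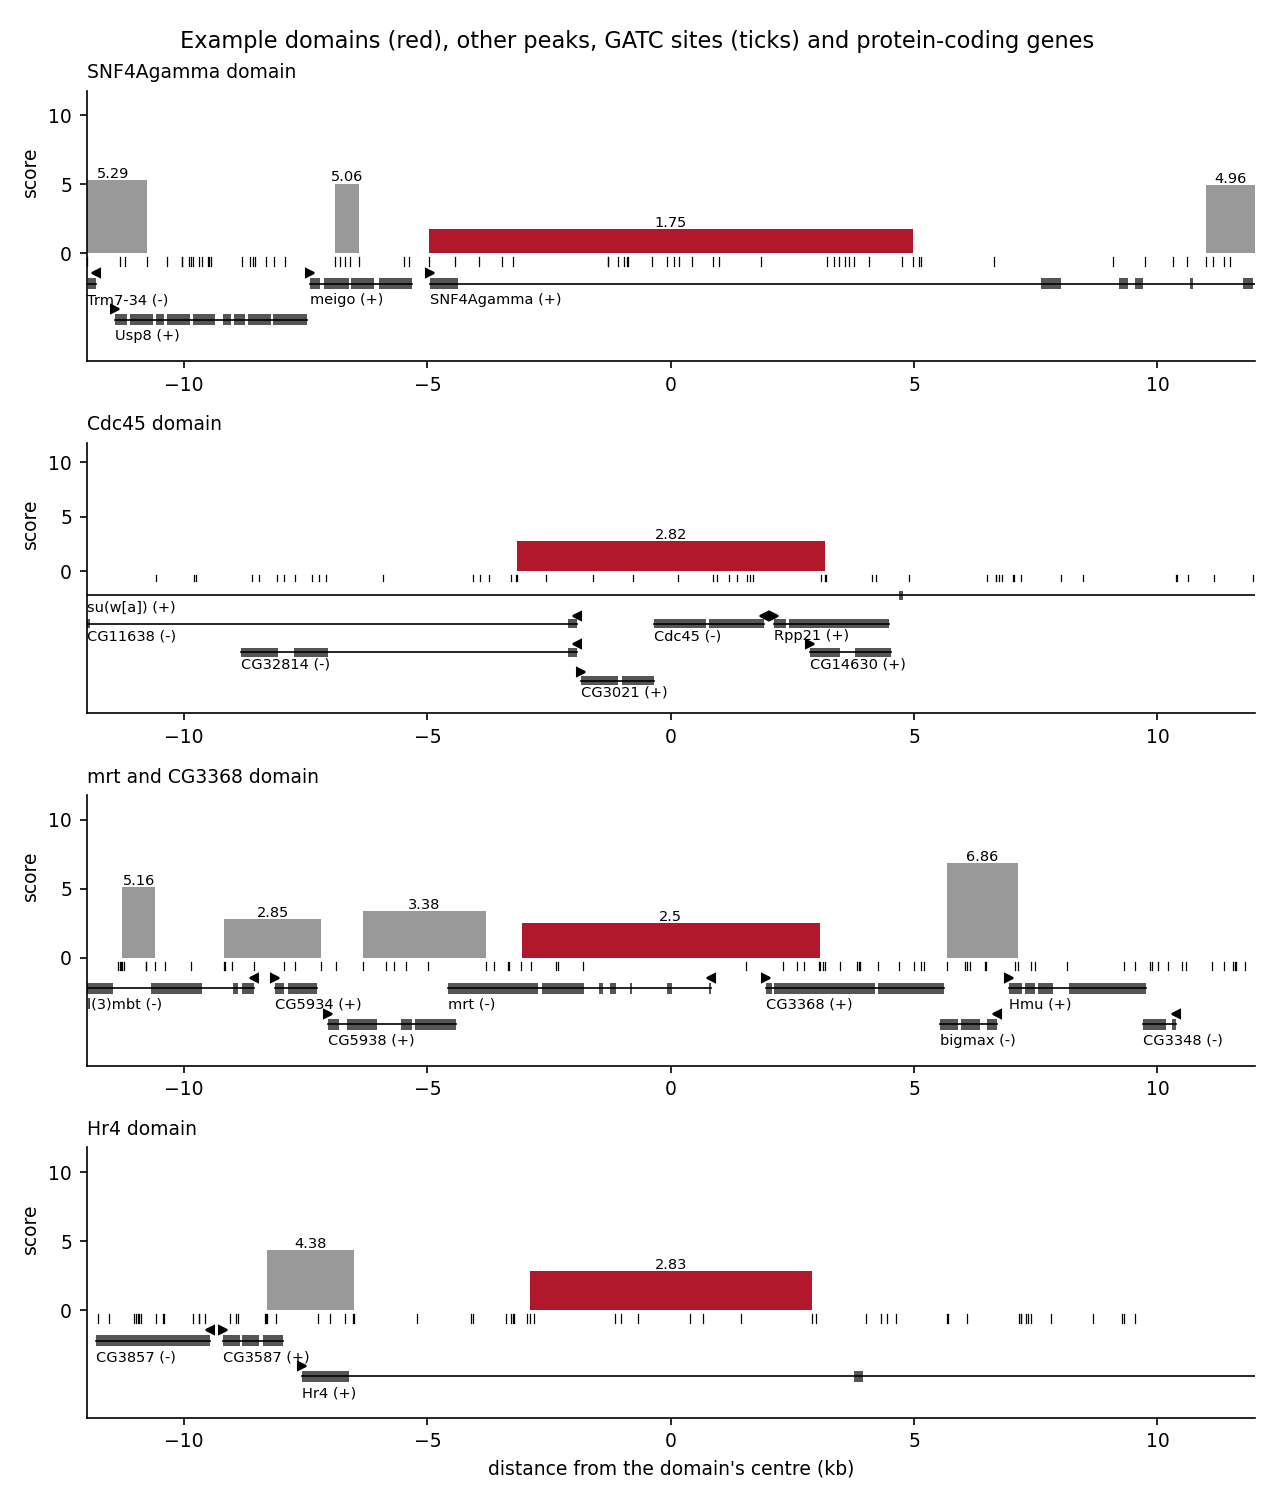
Peaks are drawn as bars whose height is the binding score (y axis) against distance from the domain's centre in kb (x axis), with broad domains in red and narrower peaks in grey, above GATC sites (ticks) and protein-coding genes (exons as boxes, starts as arrowheads). The SNF4Agamma domain (1.75) runs from the gene's start over its first exon into a long intron, the Hr4 domain (2.83) lies within an intron, the Cdc45 domain (2.82) covers 6 starts and the mrt and CG3368 domain (2.5) covers a divergent pair.

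At the level of genes, 694 of 13945 protein-coding genes were overlapped by a broad domain (4.98%), and the TSS of 366 lay in one (2.62%). Any called peak overlapped 5402 genes (38.7%). For 452 of the 694 genes the broad domain was the only peak, and for 516 a broad domain was the highest. The median length was 6353.5 bp for genes with a domain and 2777.5 bp for the other genes with a peak. The share of genes with a domain went with length, from 2.07% of genes under 2000 bp to 14.6% of the 1977 genes of 10 kb or longer, and from 7.55% to 30.4% of the genes that had any peak. A longer gene offers more bases to overlap. Part of this rise, and of the difference in median length, is therefore set by length itself. A domain covered a median of 27.9% of the gene it touched, and 61 genes lay wholly inside domains.

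In 178 genes the broad domain was not the highest peak. The higher peaks had a median score of 5.50 and a median width of 1410 bp, and the highest broad domain of these genes had a median score of 3.22. The 2 lay a median of 3173 bp apart. The higher peak was nearer to the TSS in 97 of these genes and the broad domain in 81. In 22 genes with a domain the highest peak scored 7.5 or more.

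Several domains lay in 30 genes, of which SNF4Agamma and nuf, which encodes an effector of recycling endosomes, had 3 each. The other 2 domains of SNF4Agamma were 3114 bp (3.63) and 3304 bp (3.09) wide and began 56961 and 63620 bp from the TSS. In nuf the domains scored 2.14, 4.96 and 2.66, and the last pair was 888 bp apart. The closest pairs were in Cam, the calmodulin gene (4375 and 3230 bp, both 3.56, 119 bp apart), and in tws, which encodes a regulatory subunit of protein phosphatase 2A (3059 and 3123 bp, 3.21 and 3.50, 127 bp apart). Of 52 neighbouring pairs of domains with no other peak in between, 20 shared a gene, among them puc, the JNK phosphatase gene, shot and mam.

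Gene lists were read against the 4.98% of all protein-coding genes with a domain and the 14.6% of those of 10 kb or longer, since several lists held mainly long genes. The lists gave counts only, and members can share a domain. Of 11 transcription factors of the early ecdysone response, all of them 10 kb or longer, 4 had a domain. EcR, the ecdysone receptor, had a domain of 4463 bp that was wholly intronic, began 51774 bp from its TSS and scored 2.75, while its highest peak scored 9.01. Hr4, a nuclear receptor that acts in the prothoracic gland, held 5795 bp in an intron, 4672 bp from the TSS (2.83 against 4.38 for its highest peak). The Ets factor gene Eip74EF held 4519 bp of intron, 1620 bp from the TSS (2.31 against 5.22), and the nuclear receptor gene Eip75B had 2 domains (2.39 and 3.38 against 7.27). None of these 4 genes had its TSS in a domain. Of 21 nuclear receptors 5 had a domain, of which 3 were the receptors just named, and usp, the partner of EcR, differed in that its TSS lay in its domain of 3584 bp.

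Genes of hormone synthesis, hormone uptake and growth signaling were counted next. None of 9 genes for ecdysone synthesis had a domain, and 1 had any peak. Oatp74D, which imports ecdysone into cells, had a domain of 5450 bp that scored 2.08, below its highest peak (6.02). Genes of the insulin and TOR pathway had domains in 4 of 19 cases, all in members of 10 kb or longer. InR, the insulin receptor, held a wholly intronic domain of 3095 bp (2.66), foxo, the transcription factor it restrains, a wholly intronic 1 of 3539 bp (5.68) and Pdk1 the domain with 3 fragments described above, and sgg, a kinase shared with the Wingless pathway, 1 of 4080 bp (3.40). In each of these 4 another peak scored higher, with 5.42 in InR, 8.48 in foxo, 7.56 in Pdk1 and 5.40 in sgg.

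RNA-binding proteins had domains in 8 of 33 cases, and all 8 genes were among the 24 members of 10 kb or longer. The domain of Syp, which encodes an hnRNP protein, was 6629 bp wide (2.73 against 7.70 for its highest peak), that of how, a STAR family protein, 6355 bp and wholly intronic (1.73 against 5.45) and that of mub, a KH domain protein, 6002 bp (2.90 against 5.07). In brat, a translational repressor, and mbl, a splicing regulator, the domain was the only peak, with scores of 4.08 and 3.83. Pumilio (pum) had its TSS in a domain of 4172 bp (3.92).

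Chromatin genes gave mixed counts. Among 14 histone demethylases and KDM5 partners 3 had a domain. Kdm2, another demethylase of the JmjC class, held 5921 bp that began 32 bp from its TSS and was its only peak (4.10). Myc, whose product binds KDM5, held 4997 bp (4.20) beside a higher peak of 8.00, and NO66 held 3294 bp (5.13). Of 28 Polycomb and Trithorax group genes 2 had a domain, mor, a subunit of the Brahma remodeler (3641 bp, 6.80), and trx, a histone methyltransferase (3306 bp, 5.48), and in both the domain covered the TSS. The share of 7.14% in this list compares with 4.98% of all genes.

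Genes of signaling, microtubules and vesicle traffic made up other counts, with shares that ranged from near that of all genes to above that of genes of 10 kb or longer. Domains lay in 1 of 16 receptor tyrosine kinases (6.25%), in 1 of 15 genes of the Ras to ERK pathway (6.67%) and in 2 of 28 genes of cyclic nucleotide and calcium signaling (7.14%). The Notch pathway had 2 of 16 and the Wingless pathway 3 of 17. Counts in the remaining lists were 1 of 8 Hox genes, 2 of 9 circadian clock genes, 5 of 34 genes of cell adhesion and polarity, 4 of 23 ubiquitin ligases and 3 of 25 genes of sterol and lipid metabolism. Of 28 kinases and phosphatases of stress and growth 6 had a domain, SNF4Agamma, Atg1, puc, CanA-14F, tws and gish, and all 6 were 10 kb or longer. Microtubule proteins were counted in 5 of 21 cases, with unc-104, a kinesin, at 5243 bp (2.30). Members of the Hippo pathway had domains in 3 of 16 cases, and the TSS of the kinase gene wts lay in 1 of 5487 bp (3.10). TGF-beta pathway genes had 4 of 18, including Med, the common Smad (4412 bp, 5.26), and the receptor put (3694 bp, 3.15). Vesicle traffic regulators had 6 of 32 with a median length of only 3498.5 bp, and Arf1 had a domain of 4812 bp (4.86) beside a peak of 8.57. Of 45 genes in a mixed list of developmental regulators, which also held Med, 8 had a domain, with tara at 4942 bp (3.67) and ct at 3616 bp (6.42).

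In lists of short housekeeping genes the shares with a domain rested on small counts. None of 18 TCA cycle enzymes had a domain, although 16 had a peak. Their median length was 3255 bp, and 4.18% of all genes of 2000 to 5000 bp had a domain. A list of 18 genes is too small to be set apart from that share. Domains lay in 5 of 92 cytoplasmic ribosomal protein genes (5.43%), in 4 of 73 mitochondrial ribosomal protein genes (5.48%) and in 2 of 48 proteasome genes (4.17%), against 4.98% of all genes and 2.07% of genes under 2000 bp. The median lengths of these lists were 1315, 909 and 1381.5 bp, so the share of 2.07% is the nearer match in length. Each list lay above it, on few genes. All 4 mitochondrial ribosomal protein genes, mRpS21, mRpS26, mRpS31 and mRpS33, had their TSS in the domain. Chemoreceptor and odorant-binding protein genes had 2 of 230 (0.870%) and cuticle protein genes 1 of 122 (0.820%), and few of them had any peak, 8 and 9.

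Cell type markers were counted as a check of what binding can and cannot show. None of 7 marker genes of the prothoracic gland, enzymes of ecdysone synthesis, had a peak of any width, and the same held for the fat body, salivary gland and tracheal lists of 3, 3 and 2 genes. A peak of any width was found in 1 of 4 neuron markers, 1 of 3 hemocyte markers, 1 of 2 corpora allata markers and 2 of 4 muscle markers. Mef2, a muscle factor, was the only marker with a domain (4161 bp, 2.59). A DamID peak does not measure which cells were present, so the labelled tissue could not be checked from these files.

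Domains stood further from other peaks than narrower peaks did. The nearest other peak was a median of 3466 bp away, against 2042 bp. Another peak lay within 1 kb of 91 domains (19.7%, exact 95% interval 16.2 to 23.7) and of 30.5% of narrower peaks (29.1 to 32.0). No peak lay within 10 kb of 105 domains (22.8%) and of 13.8% of narrower peaks. A peak of 7.5 or more stood within 5000 bp of 22 domains (4.77%), against 8.08% of narrower peaks. Distances ran from border to border, and a wide peak takes in bases where a narrower one could have had a neighbour. Part of these differences can therefore be set by the rule, and how much was not tested. Joining peaks at most 500 bp apart before width was measured brought the share with a neighbour within 1 kb to 12.6%, and the median number of genes per domain from 1 to 2. Joining leaves no neighbour within 500 bp, where 10.4% of domains had one, so a fall in this share was built into the step.

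The domains were spread over all chromosome arms. There were 85 on 2L, 83 on 2R, 98 on 3L, 117 on 3R, 74 on X and 4 on chromosome 4. On the 5 long arms 8.05% to 9.97% of peaks were broad domains, with 3.14 to 3.65 domains per Mb. On chromosome 4, 4 of 19 peaks were broad (21.1%), at 2.97 domains per Mb. The arm medians of domain score ran from 2.32 on chromosome 4 to 3.42 on 2R.

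Short motifs were counted in the domains and at their starts, on both strands and including overlaps, as a description of letters and not of binding. GAGAG occurred 2.18 times per kb in domains, 1.66 in narrower peaks, 2.03 in high narrow peaks and 1.57 on the arms. Within introns the densities were 2.34, 1.86, 2.42 and 1.65, so the value of the domains lay between those of the 2 classes of narrower peak. CACACACA occurred 0.843 times per kb of domain introns, 0.871 in those of high narrow peaks and 0.760 on the arms. In promoters, taken as 250 bases before to 50 after the TSS, GAGAG was in 30.3% of the 366 with a start in a domain and in 29.8% of all 13945. TATCGATA was in 14.2% of domain promoters, 14.8% of promoters in other peaks and 9.37% of all promoters, and GGTCACACT in 9.29%, 10.3% and 6.05%. TATAAA was in 48.4%, 44.2% and 45.9%. CACGTG was in 3.28% of domain promoters and 4.24% of all. For CCGCCC the shares were 6.01% and 5.97%, for CACACACA 3.55% and 4.04%, and for CAGGTAG 1.37% and 1.64%.

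Genes of other kinds were counted too, beside 2.07% of protein-coding genes under 2000 bp. Domains overlapped 75 of 3261 annotated non-coding RNA genes (2.30%), 7 of 269 snoRNA genes and 3 of 290 tRNA genes. Only 8 domains overlapped no protein-coding gene, 249 overlapped 1, 155 overlapped 2 and 35 overlapped 3, with 7 as the most.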

How the data were processed

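TaDa was carried out in 8 samples, 4 of Dam:KDM5 and 4 of Dam alone. The authors aligned reads to dm6, made Dam:KDM5 over Dam profiles with damidseq_pipeline, averaged the replicates and ran find_peaks on that profile (min_quant 0.9, FDR under 0.01). Versions of these tools: not given in the sources used here. Each peak's deposited score was used as given, as was its deposited FDR. No value per sample was used, and 0 per-sample columns were left out.

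Peaks were joined to the Ensembl release 115 annotation and the RefSeq dm6 genome with Python 3.11.15, pandas 2.3.3 and numpy 2.4.6, after counting functions were tested on simulated data. Each base was given to 1 class in the order coding exon, 5′ UTR, 3′ UTR, other exon, intron, intergenic. A gene counted as overlapped from 1 bp. Shares carry exact (Clopper-Pearson) 95% intervals (scipy 1.17.1), which cover counting error over regions only.

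The rule for the domains, the 38 gene lists and the 8 motifs were chosen with earlier results of these data known. Of the list symbols, 8 were matched by gene ID after the data were seen, with no change of membership, and magro was not matched. The counts of 1 list are not reported here. Named genes were those of the 10 widest, 5 highest, 5 lowest and 5 most start-rich domains, of the 3 peaks to each side of both limits, the 5 longest genes inside a domain, genes with several domains and up to 4 members per list. Further members were named after their values were seen. Alternatives covered both limits of the rule, the FDR, joining of peaks, the definitions of start and overlap, and the distance to a neighbour.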

Additional observations from a re-analysis of the deposited data

How the results depend on the processing

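Of 80 values recomputed under alternatives, 52 stayed within the interval of the value reported (1.5 times for counts). A width of 2500 bp gave 782 domains over 1166 genes with 2.02 fragments per kb, and 4000 bp gave 170 over 260 genes with 1.57 fragments per kb, 71.1% intron and a GC content of 41.0%. An FDR under 0.001 gave 1.92 fragments per kb. Joining peaks at most 500 bp apart gave 1108 genes, 2 genes per domain, 56.2% with a TSS, 52.3% intron, 2.22 fragments per kb, 42.5% GC and 12.6% with a neighbour. Taking peaks of 10 or more fragments in place of width, chosen after seeing the data, gave 111 domains, 206 genes, 2 genes per domain, 47.9% intron, 3.27 fragments per kb, 43.4% GC and 27.0% with a neighbour. The share with a start was 68.3% over all transcript starts and 58.1% within 500 bp, the neighbour share 10.4% at 500 bp and 34.9% at 2 kb, and genes of every biotype gave 2 per domain. Joining leaves no neighbour within 500 bp by construction, and otherwise the cause of these shifts was not tested. No score limit and a score under 5 moved none of these values out of its interval.

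No paired analysis was possible because the deposited columns carry no replicate. For the same reason no replicate was left out, and depth per sample is unknown. The resolution is that of GATC fragments.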
